A study of Mus musculus with 8 samples.

Results

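The genes described here encode 10 enzymes that make serine, asparagine and proline and that move one-carbon units between folates, and they are 10 of the 50902 genes in the series: *Phgdh*, *Psat1*, *Psph*, *Shmt1*, *Shmt2*, *Mthfd2*, *Aldh1l2*, *Asns*, *Aldh18a1* and *Pycr1*. They were picked by symbol, and the pathway was selected on the difference between the cell lines in these same libraries, so for these genes the difference is a description: no p is given for a member, and counts of members called in the fit over all genes stand beside the share of all genes and support nothing. RNA was sequenced from E14 mouse embryonic stem cells (ESCs) grown in N2B27 medium with LIF and 2i, a cytokine and inhibitors of the kinases MEK and GSK3 that together keep ESCs naive. Both lines carried a piggyBac insertion of Flag- and HA-tagged BAZ2A that escapes an siRNA against *Baz2a*, both received this siRNA, and both were collected 3 days after transfection. ESC + F/H-BAZ2Ar WT (4 libraries, below the WT line) expressed the full-length protein, and ESC + F/H-BAZ2Ar ΔTAM (4 libraries, below the ΔTAM line) expressed BAZ2A without TAM, its RNA-binding domain.  The study derived its transgenic ESCs as single-cell clones, so the deletion and the clone cannot be told apart, and nothing in the labels says that the replicates were separate cultures. The p-values given for other genes therefore measure only the spread between these libraries.

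Serine is made from a glycolytic intermediate in 3 steps. PHGDH oxidizes phosphoglycerate, PSAT1 transfers an amino group from glutamate, and PSPH removes the phosphate. Serine hydroxymethyltransferases then split serine into glycine and a one-carbon unit on tetrahydrofolate, SHMT1 in the cytosol and SHMT2 in mitochondria, and the mitochondrial enzymes MTHFD2 and ALDH1L2 oxidize that unit further. ASNS makes asparagine from aspartate and glutamine, and ALDH18A1 and PYCR1 act in mitochondria at the first and the last step from glutamate to proline. Many of these genes are known targets of ATF4, the transcription factor of the integrated stress response, which binds composite C/EBP-ATF elements (CARE) such as the one of the *Asns* promoter. Naive mouse ESCs are known to depend on one-carbon and threonine metabolism for nucleotides and methyl groups.

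Since most of these genes, though not *Shmt1*, were lower in the ΔTAM line, the promoters of the members were read first. RefSeq (GRCm38.p6) gave a window from 250 bases before to 50 bases after the start site for 9 of the 10 genes, with 10 windows in all because *Psat1* has 2 starts. *Aldh1l2* had no window. The sequences below, 5′ to 3′ on the minus strand, which carries all of these genes, show both genes with a CARE match (*Asns*, chr6:7693160-7693459, and *Pycr1*, chr11:120643699-120643998), the tested gene with the largest fold change (*Aldh18a1*, chr19:40588414-40588713), the first enzyme of serine synthesis (*Phgdh*, chr3:98339920-98340219) and the gene whose level overlapped between the lines (*Shmt1*, chr11:60811216-60811515). Capitals mark each match to a motif searched.
Asns: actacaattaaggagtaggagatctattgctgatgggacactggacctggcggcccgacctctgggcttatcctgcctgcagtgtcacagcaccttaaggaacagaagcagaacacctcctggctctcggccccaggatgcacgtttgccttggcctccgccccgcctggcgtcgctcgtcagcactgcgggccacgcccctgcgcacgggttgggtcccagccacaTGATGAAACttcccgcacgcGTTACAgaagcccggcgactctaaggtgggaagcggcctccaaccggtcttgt
Pycr1: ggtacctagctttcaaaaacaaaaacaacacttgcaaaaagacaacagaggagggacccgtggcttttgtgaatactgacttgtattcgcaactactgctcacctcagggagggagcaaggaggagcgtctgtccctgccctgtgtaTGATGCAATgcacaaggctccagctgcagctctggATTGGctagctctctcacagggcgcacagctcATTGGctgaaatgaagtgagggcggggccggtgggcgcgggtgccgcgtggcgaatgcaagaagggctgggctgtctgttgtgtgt
Aldh18a1: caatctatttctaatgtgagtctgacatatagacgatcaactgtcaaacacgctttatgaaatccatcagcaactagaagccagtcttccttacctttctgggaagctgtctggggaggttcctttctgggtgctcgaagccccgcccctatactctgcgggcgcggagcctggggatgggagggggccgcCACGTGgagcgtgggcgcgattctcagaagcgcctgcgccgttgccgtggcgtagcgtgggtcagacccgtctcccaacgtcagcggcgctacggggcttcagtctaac
Phgdh: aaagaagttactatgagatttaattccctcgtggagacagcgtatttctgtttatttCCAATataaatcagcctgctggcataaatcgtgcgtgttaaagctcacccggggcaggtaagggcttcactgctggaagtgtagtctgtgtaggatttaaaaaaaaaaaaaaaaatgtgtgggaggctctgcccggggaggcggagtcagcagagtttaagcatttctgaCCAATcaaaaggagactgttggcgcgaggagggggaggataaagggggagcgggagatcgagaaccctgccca
Shmt1: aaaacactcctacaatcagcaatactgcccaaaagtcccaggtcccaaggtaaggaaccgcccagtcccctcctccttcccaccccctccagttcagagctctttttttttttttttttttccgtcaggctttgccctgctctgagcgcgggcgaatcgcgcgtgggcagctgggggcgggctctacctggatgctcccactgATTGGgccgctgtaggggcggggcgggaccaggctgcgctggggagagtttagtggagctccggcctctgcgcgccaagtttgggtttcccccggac

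The CARE letters TGATGNAAN, searched on both strands as were all motifs, were in the windows of *Asns* and *Pycr1*, against 3.95% of all 32851 windows of this length. In *Asns* the match was TGATGAAAC and began 23 bases before the start site, and in *Pycr1* it was TGATGCAAT and began 103 bases before it. In *Asns* the hexamer GTTACA, known as the second nutrient-sensing response element (NSRE-2) of this promoter, followed the CARE after 11 bases. GTTACA was in 8.25% of all windows and in no other member's. The E-box CACGTG, a site of bHLH factors such as MYC and MAX, was in the *Aldh18a1* window 59 bases before the start and in 7.15% of all windows. CCAAT, the box that NF-Y binds, was in 6 of the 10 windows (those of *Phgdh*, *Psph*, *Shmt1*, *Mthfd2* and *Pycr1* and 1 of the 2 of *Psat1*), against 37.4% of all windows. The cyclic AMP response element TGACGTCA was in no member's window and in 1.79% of all windows. No motif overlapped another. *Shmt1*, whose level overlapped between the lines, shared the CCAAT box with 5 genes that were lower in the ΔTAM line. A match describes letters in a window and not a bound site, and a missing match says only that these letters are not in it.

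**Figure D1:**
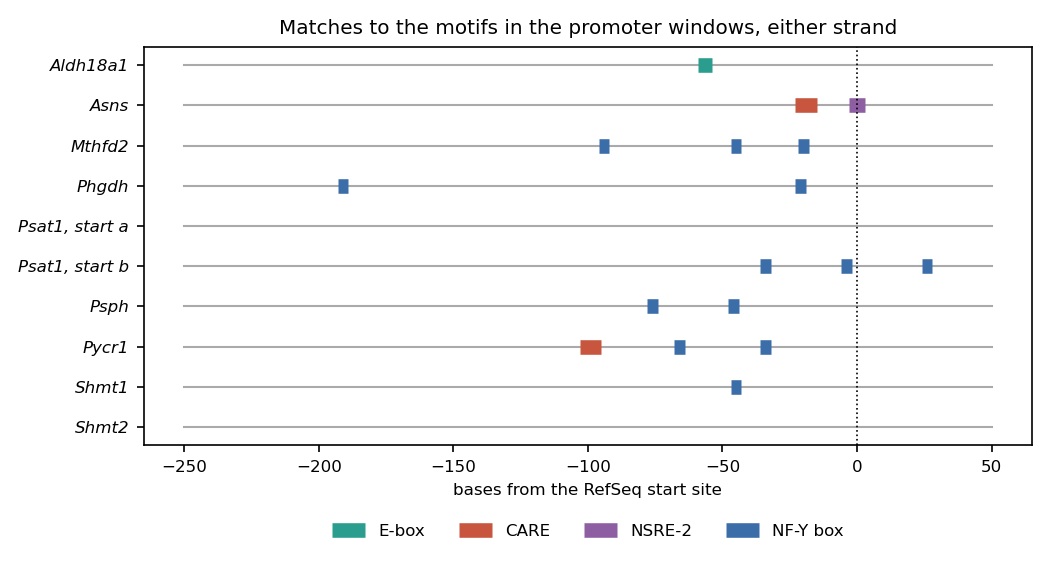
Matches to the motifs in the 10 promoter windows of 9 genes, by distance in bases from the RefSeq start site (dotted line); each grey line is a window and each block a match on either strand. CARE matches lie in *Asns* and *Pycr1*, the E-box match in *Aldh18a1*, and matches to the CCAAT box (shown as NF-Y box) in 6 genes; *Psat1* start a is the more downstream start, and *Shmt2* has no match.

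The deposited values are RPKM, reads per kilobase of gene per 1000000 reads, and the length used is the whole genomic span of the gene. Long genes with large introns thus have low RPKM, while the ratio between lines is untouched. The spans on mm10 run from 5.32 kb for *Shmt2* to 46.7 kb for *Aldh1l2*, and exons make up from 9.27% of the span in *Phgdh* to 58.4% in *Shmt2*. Fold changes are the ΔTAM line over the WT line on the scale of log2(RPKM + 0.1) with standard errors (SE) from limma, and they understate differences of genes with low RPKM. Whole reads could be recovered from the RPKM, and fold changes of these reads by limma voom are given for all members, and for other named genes where they differ by more than 0.1.

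The genes of serine synthesis were lower in the ΔTAM line by about the same proportion. *Phgdh* (chr3:98313170-98339990, 13 exon blocks), the first enzyme of the path, had 1.16, 1.13, 1.09 and 1.05 RPKM in the WT libraries and 0.788, 0.732, 0.732 and 0.710 RPKM in the ΔTAM libraries. Every ΔTAM library was below every WT library. The mean of the ΔTAM line was 66.9% of that of the WT line, a log2 fold change of -0.52 (SE 0.040), or -0.58 (SE 0.043) from the recovered reads. *Psat1* (chr19:15904678-15947337), the aminotransferase, had 2.65, 2.63, 2.64 and 2.68 RPKM in the WT libraries and 1.70, 1.85, 1.85 and 1.79 RPKM in the ΔTAM libraries. The WT libraries had a coefficient of variation (SD over mean) of 0.846%, and the lines did not overlap. The ΔTAM line kept 67.8% of the WT mean, a log2 fold change of -0.54 (SE 0.030), or -0.56 (SE 0.031) from the recovered reads. *Psph* (chr5:129765558-129787449), the phosphatase of the last step, had 0.661, 0.663, 0.647 and 0.621 RPKM in the WT libraries and 0.449, 0.475, 0.461 and 0.465 RPKM in the ΔTAM libraries. These groups were also separate, at 71.4% of the WT mean and a log2 fold change of -0.41 (SE 0.028). For *Psph* the recovered reads gave a larger fold change of -0.48 (SE 0.048). *Psph* shares 452 exonic bases, 10.4% of its exons, with *Cct6a* on the other strand, which had 1.59 RPKM in the WT line and 1.74 in the ΔTAM line, and whether the counting of these stranded libraries used strand is not stated.

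Of the serine hydroxymethyltransferases, the mitochondrial one was lower in the ΔTAM line and the cytosolic one was not separated. *Shmt2* (chr10:127517123-127522444) had 11.5, 11.7, 12.2 and 11.3 RPKM in the WT libraries and 8.38, 9.35, 8.40 and 8.68 RPKM in the ΔTAM libraries. All ΔTAM libraries were below all WT libraries, with ΔTAM replicate 2 nearest to them. The ΔTAM line had 74.6% of the WT mean, a log2 fold change of -0.42 (SE 0.043), and the recovered reads also gave -0.42 (SE 0.038). *Shmt1* (chr11:60788104-60811718) had 1.31, 1.35, 1.41 and 1.28 RPKM in the WT libraries and 1.33, 1.36, 1.32 and 1.26 RPKM in the ΔTAM libraries. These ranges overlapped, the ΔTAM mean was 98.3% of the WT mean, and the log2 fold change of -0.022 (SE 0.036) was smaller than its error, as was the -0.024 (SE 0.039) from the recovered reads. It was 0.0023 without WT replicate 3. *Shmt1* shares 184 exonic bases, 4.74% of its exons, with *Smcr8* on the other strand, which had 0.901 RPKM in the WT line and 1.24 in the ΔTAM line.

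Both mitochondrial folate enzymes were lower in the ΔTAM line. *Mthfd2* (chr6:83305691-83325908), the dehydrogenase and cyclohydrolase, had 1.53, 1.61, 1.57 and 1.57 RPKM in the WT libraries and 0.971, 1.01, 0.994 and 0.962 RPKM in the ΔTAM libraries. The ΔTAM libraries were all lower, at 62.7% of the WT mean, with a coefficient of variation of 2.02% in the WT line and 2.19% in the ΔTAM line. The log2 fold change was -0.62 (SE 0.025), or -0.67 (SE 0.038) from the recovered reads. *Aldh1l2* (chr10:83487450-83534140), which releases carbon dioxide from formyl-tetrahydrofolate and makes NADPH, was the member with the fewest reads. It had 46, 45, 38 and 51 reads in the WT libraries and 13, 11, 21 and 12 reads in the ΔTAM libraries. The lines did not overlap, and the ΔTAM mean was 31.9% of the WT mean by RPKM. At 0.0191 RPKM in the WT line and 0.0061 in the ΔTAM line the gene fell under the minimum mean of 0.1 RPKM and was the single member left out of the fit. The recovered reads gave a log2 fold change of -1.65 (SE 0.22), whereas the pseudocount of 0.1 RPKM without the minimum gave -0.17 (SE 0.017). The gene shares 1056 exonic bases, 14.1% of its exons, with *D10Wsu102e* on the other strand, which had between 910 and 1316 reads per library, and the part of shared reads in the values was not tested.

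*Asns*, the asparagine synthetase, was lower in the ΔTAM line as well, and it had the highest level of the members per length of exon, though not by RPKM. *Asns* (chr6:7675169-7693254) had 10.7, 10.8, 10.5 and 11.1 RPKM in the WT libraries and 6.31, 6.52, 6.60 and 6.17 RPKM in the ΔTAM libraries. The groups were far apart relative to their spread, with coefficients of variation of 1.94% and 3.09%. The ΔTAM line had 59.3% of the WT mean, a log2 fold change of -0.74 (SE 0.028), or -0.75 (SE 0.028) from the recovered reads.

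The proline genes were among the most reduced. *Aldh18a1* (chr19:40550257-40588463), which makes pyrroline carboxylate from glutamate, had 1.06, 1.04, 1.09 and 1.02 RPKM in the WT libraries and 0.547, 0.557, 0.533 and 0.526 RPKM in the ΔTAM libraries. The highest ΔTAM library reached 53.1% of the WT mean. With 51.5% of the WT mean, *Aldh18a1* had the largest log2 fold change of the members tested, -0.84 (SE 0.028), and -0.96 (SE 0.038) from the recovered reads. *Pycr1* (chr11:120635712-120643769), the reductase that finishes proline, had 1.97, 1.99, 1.96 and 2.05 RPKM in the WT libraries and 1.10, 1.32, 1.20 and 1.08 RPKM in the ΔTAM libraries. The ΔTAM libraries varied more (coefficient of variation 9.47%, against 2.16% in the WT line) but stayed below all WT libraries. The ΔTAM mean was 58.9% of the WT mean, a log2 fold change of -0.72 (SE 0.059), or -0.77 (SE 0.056) from the recovered reads. The overlapping genes on the same strand as *Aldh18a1* and *Mthfd2* share no exonic base with them, and no other gene overlaps *Phgdh*, *Asns* or *Pycr1*.

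**Figure D2:**
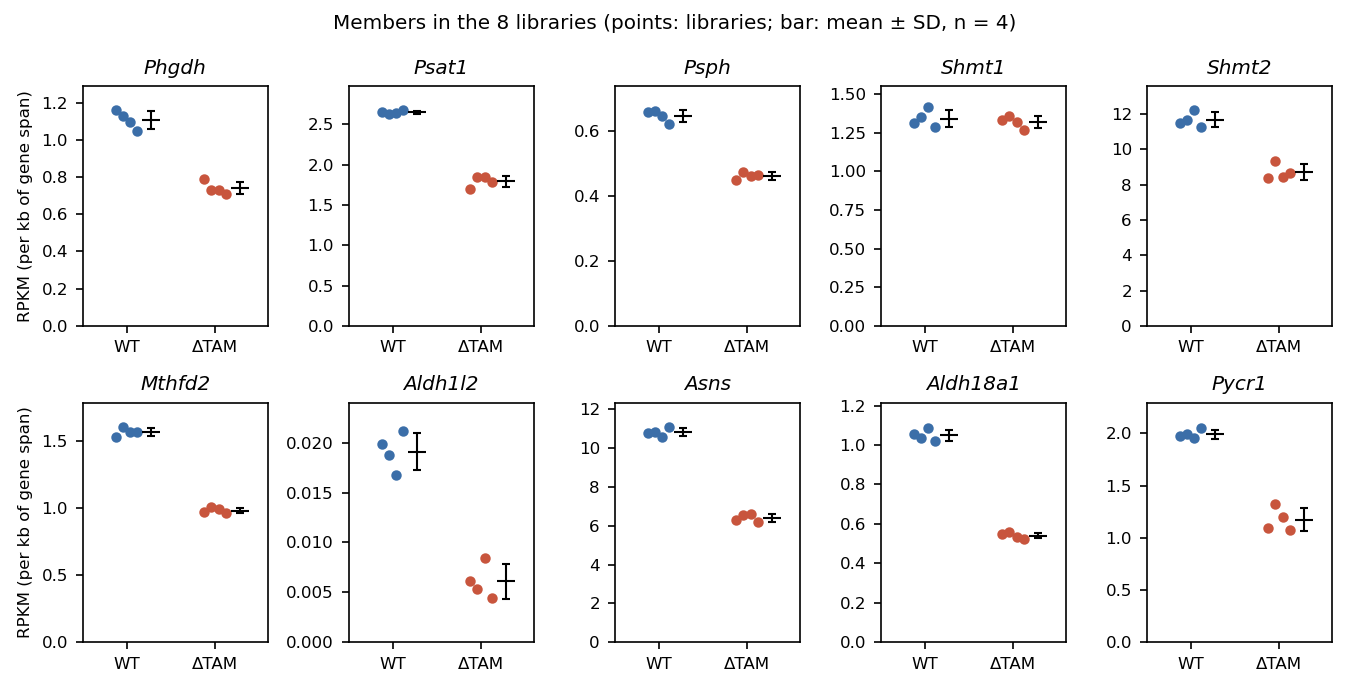
RPKM of the 10 genes in the 4 WT libraries (blue) and the 4 ΔTAM libraries (red), with the mean and SD of each line as a bar. The vertical axis starts from 0 in each panel, and the length in the RPKM is the gene span. In 9 genes, with *Aldh1l2* from below the minimum level among them, every ΔTAM library is below every WT library. The same holds for 16.7% of all genes tested. In *Shmt1* the lines overlap.

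Of the 10 genes, 9 passed the minimum level and 8 of these were lower in the ΔTAM line at an adjusted p under 0.05 (limma with Benjamini-Hochberg adjustment), with none higher. Over all 9000 genes tested, 15.9% were lower and 19.9% higher by this call. The same 8 genes had no overlap between the lines in the direction of the ΔTAM line being lower, as did 16.7% of all genes tested. The study's thresholds ask for 0.58 or more in absolute log2 fold change at a p under 0.05, taken here as the unadjusted p, and past them were *Mthfd2*, *Asns*, *Aldh18a1* and *Pycr1* as lower, against 1.47% of all genes tested. From recovered reads, *Phgdh* with -0.58 and *Aldh1l2* with -1.65 were also past 0.58 in absolute value. Since the pathway was chosen for this contrast, nothing is read from these counts. The median log2 fold change of the tested members was -0.54, while that of all genes tested was 0.011, the percentile at 5 being -0.39 and that at 95 being 0.46. The tested members other than *Shmt1* lay below the lower percentile. Together the 10 genes took 0.357% to 0.360% of the reads assigned to genes in the WT libraries and 0.228% to 0.241% in the ΔTAM libraries.

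Compared per length of exon, as reads per kilobase of exon per 1000000 gene reads, the levels of the members spanned a wide range. In the WT line *Asns* was highest at 479 ± 10.3 (SD, n = 4), followed by *Psat1* at 178 ± 2.06, *Shmt2* at 134 ± 4.62, *Phgdh* at 80.2 ± 3.26, *Aldh18a1* at 66.1 ± 1.70, *Mthfd2* at 61.1 ± 1.17 and *Shmt1* at 54.6 ± 2.20. *Pycr1* at 27.4 ± 0.662 and *Psph* at 22.0 ± 0.591 came next, and *Aldh1l2* was lowest at 0.798 ± 0.0805. No neighbours in this order overlapped between libraries of the WT line. The order between genes, here and in the ΔTAM line, also rests on the GENCODE vM21 exon lengths. The spread between libraries does not measure an error in these lengths. In the ΔTAM line the order began likewise with *Asns* at 283 ± 7.93, *Psat1* at 120 ± 3.94 and *Shmt2* at 99.6 ± 4.91. *Shmt1* then came next at 53.6 ± 1.57, with *Phgdh* at 53.4 ± 2.62, and their ranges overlapped. *Mthfd2* at 38.2 ± 0.711 was above *Aldh18a1* at 34.0 ± 0.905, the reverse of their order in the WT line. *Pycr1* at 16.1 ± 1.46 and *Psph* at 15.6 ± 0.312 also overlapped. The places of *Shmt1*, *Phgdh* and *Aldh18a1* thus differed between the lines, while the other members kept theirs.

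**Figure D3:**
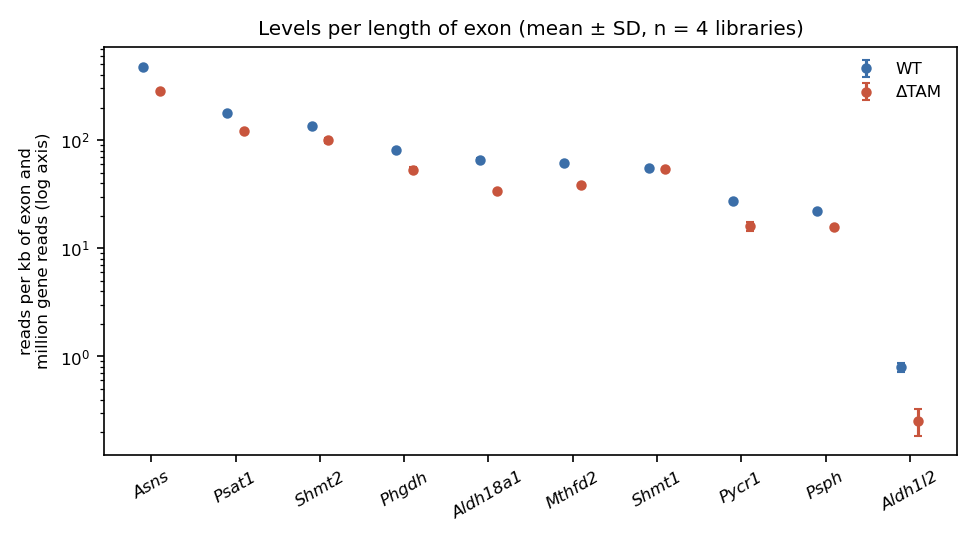
Reads per kilobase of exon per 1000000 gene reads (logarithmic axis) of the members in the WT line (blue) and the ΔTAM line (red), as mean ± SD of 4 libraries, in the order of the WT line. Levels run from 479 for *Asns* to 0.798 for *Aldh1l2* in the WT line, and only the *Shmt1* points lie at the same height in both lines.

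Ratios within a library do not depend on the scaling between libraries. *Psat1* over *Phgdh*, per length of exon, was 2.23 ± 0.110 (SD, n = 4) in the WT line and 2.26 ± 0.166 in the ΔTAM line, and *Psph* over *Phgdh* was 0.274 ± 0.00497 and 0.293 ± 0.0183. The ranges of both ratios overlapped between the lines. *Asns* over *Phgdh* was 5.98 ± 0.334 in the WT line and 5.30 ± 0.276 in the ΔTAM line, and these ranges did not overlap. *Shmt2* over *Shmt1* was 2.45 ± 0.0165 in the WT line and 1.86 ± 0.0882 in the ΔTAM line, again without overlap. *Pycr1* over *Aldh18a1* was 0.415 ± 0.0197 in the WT line and 0.473 ± 0.0370 in the ΔTAM line, where the highest WT library was at 0.440 and the lowest ΔTAM library at 0.438. The mitochondrial and cytosolic hydroxymethyltransferases were thus nearer to each other in the ΔTAM line.

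The members have close relatives that the pathway's choice did not include. *Mthfd1*, the trifunctional cytosolic folate enzyme, rose from 1.11 ± 0.0260 RPKM (SD, n = 4) in the WT line to 1.27 ± 0.0188 in the ΔTAM line, with a log2 fold change of 0.18 (SE 0.025, adjusted p = 0.00137 from limma). *Mthfd1l*, the mitochondrial formate-producing enzyme that acts after MTHFD2, fell from 0.15 ± 0.00742 to 0.0993 ± 0.00622 RPKM, with a log2 fold change of -0.33 (SE 0.041, adjusted p = 0.000896 from limma). Its recovered reads gave -0.59 (SE 0.046). Within a library and per length of exon, *Mthfd2* over *Mthfd1* was 0.563 ± 0.0222 in the WT line and 0.309 ± 0.0113 in the ΔTAM line, and *Mthfd1l* over *Mthfd1* was 0.406 ± 0.0280 and 0.236 ± 0.0181. Neither ratio overlapped between the lines, and both mitochondrial genes were lower relative to the cytosolic one in all ΔTAM libraries.

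*Mthfd2l*, the other mitochondrial dehydrogenase of this kind, had between 2 and 5 reads in the WT libraries and between 6 and 9 in the ΔTAM libraries, too few to test. *Aldh1l1*, the cytosolic relative of *Aldh1l2*, was under the minimum level with means of 0.103 RPKM in the WT line and 0.0615 in the ΔTAM line. From its recovered reads the log2 fold change was -0.74 (SE 0.054, adjusted p = 2.96e-10 from limma voom), so this cytosolic enzyme was lower as well. *Pycr3*, the cytosolic relative of *Pycr1*, had 0.874 ± 0.106 RPKM in the WT line and 0.724 ± 0.0731 in the ΔTAM line, with a log2 fold change of -0.24 (SE 0.092, adjusted p = 0.0786 from limma). The recovered reads put its adjusted p at 0.025 by limma voom.

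**Figure D4:**
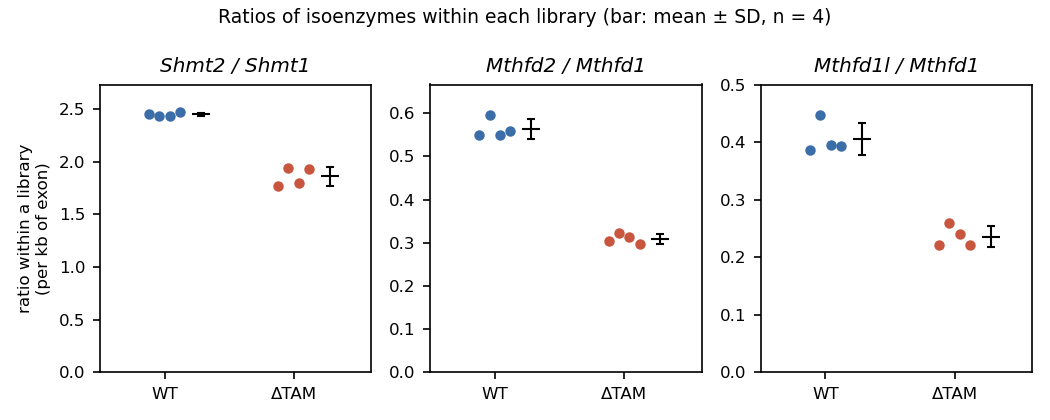
Ratios of 3 pairs of related genes within each library, per length of exon (vertical axis, from 0), in the WT line (blue) and the ΔTAM line (red), with the mean and SD of 4 libraries as a bar. In each pair every ΔTAM library is below every WT library, for example *Shmt2* over *Shmt1* at 2.45 and 1.86 on average.

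Other genes of the same metabolism were looked at in lists made by role. Their counts stand beside the 15.9% of all genes tested that were lower and the 19.9% that were higher, and nothing particular to a list is read from them. Of 20 other genes of the folate cycle, folate transport and glycine cleavage, 16 were tested, 5 fell and 4 rose, with a median log2 fold change of 0.020. *Folr1*, a folate receptor, rose by 0.47 on the log2 scale (SE 0.036, adjusted p = 9.24e-05 from limma), and *Tyms*, the thymidylate synthase, rose by 0.40 (SE 0.034, adjusted p = 0.000141 from limma). *Gldc*, the decarboxylase of the glycine cleavage system, fell from 0.803 ± 0.0320 to 0.583 ± 0.0102 RPKM, with -0.40 (SE 0.031, adjusted p = 0.0001 from limma). The median of all genes tested was 0.011.

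Of 11 genes of purine synthesis, the path that takes up formyl groups from folate, 10 were tested, 3 fell and 2 rose, with a median of -0.030. *Adss*, the adenylosuccinate synthase, rose by 0.30 (SE 0.028, adjusted p = 0.000199 from limma), while *Impdh1*, an inosine monophosphate dehydrogenase, had -0.27 (SE 0.048, adjusted p = 0.0037 from limma) and *Gmps*, the guanine nucleotide synthase, -0.19 (SE 0.036, adjusted p = 0.00539 from limma). *Impdh2*, the more abundant relative of *Impdh1*, had -0.18 (SE 0.067, adjusted p = 0.0747 from limma) with overlapping lines, and was called lower in the fit of recovered reads (adjusted p = 0.00474 from limma voom). Of 13 genes of serine use, the methionine cycle and glutathione synthesis, 10 were tested, 2 fell and 5 rose, with a median of 0.046. *Mat2a*, which makes S-adenosylmethionine, rose from 5.28 ± 0.160 to 7.89 ± 0.480 RPKM, with 0.57 (SE 0.045, adjusted p = 0.000111 from limma), and its regulatory subunit *Mat2b* rose by 0.20 (SE 0.031, adjusted p = 0.00208 from limma). *Cth*, which cleaves cystathionine to cysteine, fell from 0.934 ± 0.0194 to 0.737 ± 0.0183 RPKM, with -0.30 (SE 0.026, adjusted p = 0.000148 from limma).

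Of 15 other genes of proline, asparagine, aspartate, glutamate and glutamine, 10 were tested, 4 fell and 2 rose, with a median of -0.11. *Asrgl1*, an asparaginase, fell, with a log2 fold change of -0.47 (SE 0.044, adjusted p = 0.000204 from limma), and its recovered reads gave -0.70 (SE 0.072). *Glul*, which makes glutamine, rose by 0.39 (SE 0.045, adjusted p = 0.000553 from limma), and *Glud1*, the glutamate dehydrogenase, had -0.21 (SE 0.044, adjusted p = 0.00786 from limma). With recovered reads, 13 genes on this list were tested and 10 were called, against 10 tested and 6 called here. That fit called 2775 of all 12657 genes it tested lower and 2773 higher. Nothing is read from the larger count. Changes of these lists ran from -0.47 to 0.57, and on this scale none of the tested genes in them passed the study's thresholds. By recovered reads, *Asrgl1* and *Mthfd1l*, and *Aldh1l1*, *Mthfs* and *Adssl1* among genes below the filter, were past 0.58 in absolute log2 fold change.

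*Atf4* itself fell from 29.1 ± 1.38 to 24.4 ± 1.20 RPKM, with a log2 fold change of -0.25 (SE 0.046, adjusted p = 0.00431 from limma). Of 13 genes of ATF4 and the stress response, 11 were tested, 9 fell and none rose, against 15.9% lower and 19.9% higher of all genes tested, with a median of -0.38. *Chac1*, a glutathione-degrading enzyme, had the largest change of them at -1.26 (SE 0.082, adjusted p = 5.16e-05 from limma), followed by *Nupr1*, a stress-induced cofactor, at -0.74 (SE 0.038, adjusted p = 2.17e-05 from limma) and *Ddit4*, an inhibitor of mTORC1, at -0.60 (SE 0.065, adjusted p = 0.000441 from limma). This list was made with its direction already known, which makes it no independent evidence.

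**Figure D5:**
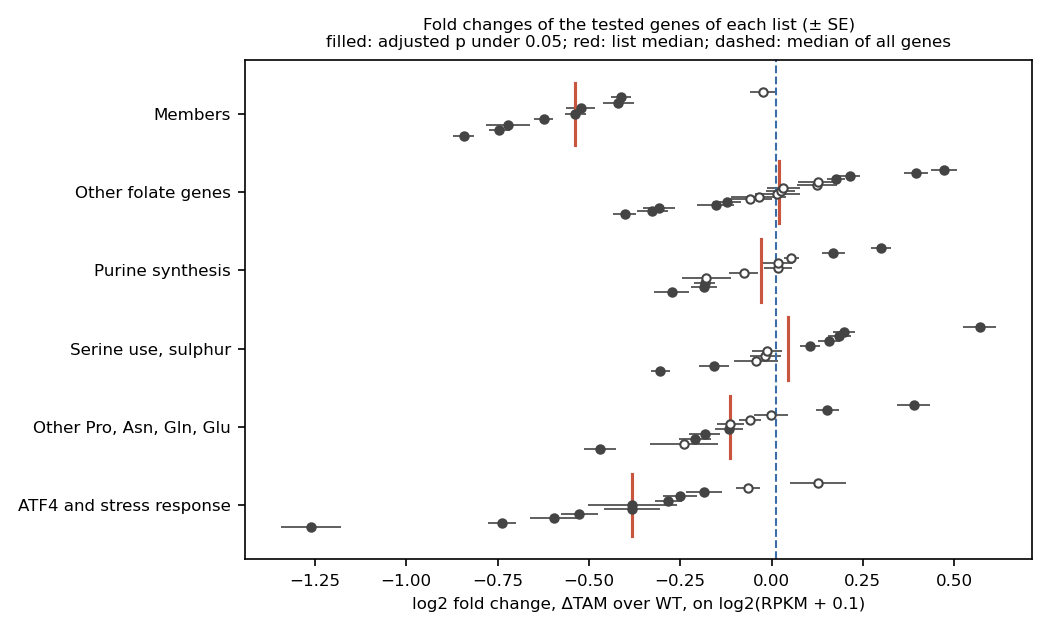
Log2 fold changes (ΔTAM over WT, on log2(RPKM + 0.1), with SE) of the tested genes of each list; filled points have an adjusted p under 0.05, red bars are list medians and the dashed line is the median of all genes tested. The members center on -0.54 and the ATF4 genes on -0.38, while the other metabolic lists lie on both sides of 0 with medians from -0.11 to 0.046.

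Among 2142 other genes that averaged 1 RPKM or more, those whose profile over the 8 libraries was nearest to the mean profile of the 9 tested members were *Slc7a5* and *Slc3a2*, the light and heavy chain of an amino acid transporter, then *Nrm*, an inner nuclear membrane protein, *Sars*, the seryl-tRNA synthetase, and *Fgf4*, a growth factor of ESCs. Their root mean square distances on the log2 scale were 0.0177, 0.0266, 0.0450, 0.0473 and 0.05, and their log2 fold changes lay between -0.55 for *Sars* and -0.48 for *Fgf4*. With the difference between the lines dominating the profile, this measure mostly finds genes with a fold change of similar size.

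Between 6573212 and 8680058 reads per library were assigned to genes, with 18913 to 19798 genes above 0 and 2.30% to 2.57% of reads from the mitochondrial genome. At this depth each member but *Aldh1l2* had at least 400 reads in every library, and counting error covers neither PCR duplicates nor differences between cultures. *Baz2a*, measured as transgene and remaining endogenous transcript together, had 9.95 to 11.2 RPKM in the WT line and 17.0 to 18.9 RPKM in the ΔTAM line, so the amount of *Baz2a* RNA differed along with the deletion. The paper describes the BAZ2A protein as similar in amount in both lines by western blot. The part of the RNA difference in the results was not tested. The 5 ESC markers *Pou5f1*, *Nanog*, *Sox2*, *Zfp42* and *Esrrb* were all expressed, with a summed level of 69.6 to 72.0 RPKM in the WT line and 60.1 to 65.3 in the ΔTAM line. *Sox2* fell, with a log2 fold change of -0.42 (SE 0.029, adjusted p = 6.86e-05 from limma), and so did *Esrrb* with -0.20 (SE 0.030, adjusted p = 0.00176 from limma), while *Pou5f1*, *Nanog* and *Zfp42* did not pass the test. Of 12 markers of endoderm, mesoderm, neural cells, fibroblasts and trophoblast, 3 reached a mean of 0.1 RPKM, their sum was 1.22 to 1.31 RPKM in the WT line and 0.978 to 1.31 in the ΔTAM line, and *Foxa2* had at most 3 reads in any library. Of these, *Eomes* had -0.26 (SE 0.078, adjusted p = 0.0359 from limma) with overlapping values, and by limma voom on recovered reads *Eomes* had -0.46 (SE 0.155, adjusted p = 0.0202), *Sox1* -0.95 (SE 0.242, adjusted p = 0.00298) and *Cdx2* 0.39 (SE 0.143, adjusted p = 0.0322). The part of either marker list in the members' levels was not tested.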

How the data were processed

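RNA-seq of 8 libraries was used, 4 per line, grouped by the labels. The authors removed ribosomal RNA reads, mapped trimmed single-end reads with STAR to mm10 and deposited RPKM values per gene and library. The libraries were made with a stranded mRNA kit per the labels. The gene annotation release and whether the counting used strand are not given in the sources used here. RPKM times gene span was a whole multiple of 1 constant in each library (99.5% of values above 0, tolerance 0.02 reads), which gave the reads. Repeated entries of a symbol were set aside (386 of 51288). Exon lengths came from GENCODE vM21.

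Fold changes were fitted with limma 3.58.1 in R 4.3.3 (lmFit, eBayes with trend) on log2(RPKM + 0.1) for genes averaging 0.1 RPKM or more, with Benjamini-Hochberg adjustment over 9000 genes. Alternatives were other pseudocounts, filters and scalings, no trend, a replicate block, each library left out, and voom on genes averaging 10 reads or more. The procedure was tested on simulated data. The members and lists were chosen with earlier results of these data known. Named were all members, their paralogs, *Atf4*, *Baz2a*, of each other list the 3 called genes with the largest change, and the 5 nearest profiles. *Impdh2*, *Mthfs*, *Adssl1*, *Sox1* and *Cdx2* were named after their values were seen. Another 2 genes that role or rule would include are not reported here and were left out of the lists. Python 3.11.15 was used for tables and figures.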

Additional observations from a re-analysis of the deposited data

Results flagged for a closer look

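Of 62 groups of 4 libraries looked at among the named genes, 3 held a library far from the others by Dixon's test, and chance gives about 1 in 20. None was a member. *Mat2b* was at 0.986 RPKM in ΔTAM replicate 2 and between 0.911 and 0.912 RPKM in the other ΔTAM libraries, and the gap was 0.975 of the group's range. *Chac1* was at 2.48 RPKM in WT replicate 3 and at most 2.01 in the others, a gap of 0.843. *Mthfd2l* had 2 reads in WT replicate 1 and 5 in each of the others, a gap of 0.908 of the range in RPKM. All ΔTAM libraries of *Mat2b* were above, and all ΔTAM libraries of *Chac1* below, every WT library with or without the distant library.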

How the results depend on the processing

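The members called lower stayed 8 (9 with no minimum level, which lets in *Aldh1l2*) under every alternative to the pseudocount, scaling, trend and block and without any single library. A minimum mean of 1 RPKM left out *Phgdh*, *Psph*, *Aldh18a1* and *Aldh1l2*, with 5 of the other members called. It tested 2142 genes beside the members and gave, members included, 399 genes called lower and 590 higher. Under it 3 of the folate, 2 of the purine and 1 of the serine use and sulphur genes were called. Voom on recovered reads called 9 of 10 members, and it called 2775 of all 12657 genes it tested lower and 2773 higher. It called 10 of the 13 other proline, asparagine and glutamine genes that it tested. Nothing is read from these counts. Among the members and the other genes followed one by one across these alternatives, no called change reversed. A pseudocount of 1 RPKM reduced the fold changes of low genes most, for *Psph* to -0.17 and for *Aldh18a1* to -0.41. No scaling moved the median of all genes by more than 0.025. *Pycr3* passed the threshold with a replicate block, quantile scaling, voom, and without WT replicate 4 or ΔTAM replicate 3 (adjusted p from limma 0.0247 to 0.0475). Same-numbered libraries deviated together only weakly, with correlations of 0.0238 to 0.0623, against -0.0606 to 0.0276 for libraries of different number. The numbers were therefore not taken as pairs in the main fit. With the replicate block 1239 genes were lower and 1557 higher, against 1435 and 1790. Depth limits *Aldh1l2* and *Mthfd2l*, and the pseudocount shrinks changes of genes with low RPKM.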
